A study of Mus musculus with 6 samples.

Results

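The nicotinic acetylcholine receptor subunit genes *Chrna3*, *Chrna4*, *Chrna5*, *Chrna7*, *Chrnb2*, *Chrnb3*, and *Chrnb4* were taken by symbol from the table of hippocampal expression values, and all 7 were among its 14477 genes. Hippocampal RNA from 3 untreated Phf21bΔ4/Δ4 mice (replicates 2, 3, and 6) and 3 untreated Phf21b+/+ mice (replicates 5, 7, and 8) was sequenced after removal of ribosomal RNA, with 1 library per mouse. Phf21bΔ4/Δ4 mice carry a CRISPR/Cas9 deletion in exon 4 of *Phf21b*, an epigenetic reader gene, in every tissue, and both genotypes were on a C57BL/6J background. The paper describes its animals in general as young adult littermates of both sexes, and which age and sex each of these 6 mice had was not given in the sources used here.

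Nicotinic receptors are pentameric cation channels that open when acetylcholine binds between subunits. The alpha subunits encoded by *Chrna3*, *Chrna4*, and *Chrna7* carry the main face of the binding site, the products of *Chrnb2* and *Chrnb4* supply the complementary face, and those of *Chrna5* and *Chrnb3* join as accessory subunits. Receptors of alpha4 with beta2 and of alpha7 alone are the common forms in the hippocampus and cortex, whereas receptors with alpha3 and beta4 are known mainly from autonomic ganglia and the medial habenula, a small nucleus that lies close to the hippocampus and the thalamus.

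The values were deposited as log2 CPM, the logarithm of read counts scaled to effective library size. They stepped by whole reads, so each mouse's reads could be worked out, and the libraries held 20495605 to 24881257 reads over these genes. A level of 3 reads corresponded to between 0.127 and 0.143 CPM. *Phf21b* itself had 51, 75, and 89 reads for Phf21bΔ4/Δ4 replicates 2, 3, and 6, against 137, 124, and 144 for Phf21b+/+ replicates 5, 7, and 8, so the mutant mice lay below the others but kept part of the transcript (FDR 0.141, limma). Hippocampal markers were present in all 6 mice. Summed CPM lay between 106 and 578 for the dentate granule cell list and between 293 and 432 for the CA3 list. Markers of regions outside the hippocampus were present too. The medial habenula list summed to 137 to 229 CPM in Phf21bΔ4/Δ4 mice and 434 to 642 CPM in Phf21b+/+ mice. Most of the Phf21bΔ4/Δ4 sum was *Etv1* and *Nwd2*, with means of 83.1 and 65.1 CPM (48.5 and 172 CPM in Phf21b+/+ mice). *Pou4f1*, *Irx2*, *Chat*, and *Slc18a3* of that list had at most 3 reads in each Phf21bΔ4/Δ4 mouse. The thalamus and lateral habenula list summed to 241 to 358 CPM in Phf21bΔ4/Δ4 mice and 538 to 861 CPM in Phf21b+/+ mice. Dentate markers summed to 112 and 106 CPM in Phf21bΔ4/Δ4 replicates 2 and 3, to 469 CPM in Phf21bΔ4/Δ4 replicate 6, and to between 480 and 578 CPM in Phf21b+/+ mice. Phf21b+/+ replicate 7 stood apart in 8 choroid plexus genes, which summed to 15690 CPM there and to between 22.7 and 977 CPM in the other mice.

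Between the genotypes, 3 of the 7 subunit genes were lower in Phf21bΔ4/Δ4 mice and none was higher by limma's moderated test, for which a call needed an FDR below 0.1 together with more than a 1.3-fold difference. Over all 14477 genes, 1.22% were called in either direction, 0.663% lower and 0.553% higher. The genes that fell were *Chrna3* and *Chrnb4*, which lie side by side on chromosome 9, and *Chrnb3* on chromosome 8. *Chrna5*, the third gene of the chromosome 9 cluster, was not called and had its highest levels in Phf21bΔ4/Δ4 mice. The 3 Phf21bΔ4/Δ4 mice all lay below the 3 Phf21b+/+ mice in *Chrna3*, *Chrnb4*, and *Chrnb3*, and all above them in *Chrna7*. Such a separation was seen downward in 16.0% and upward in 15.0% of all genes, so it is common in this comparison. The median log2 fold change was 0.14 over the 7 subunits and -0.019 over all genes. In bulk tissue, fewer cells of a type in the piece dissected and less RNA per cell cannot be told apart.

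**Figure D1:**
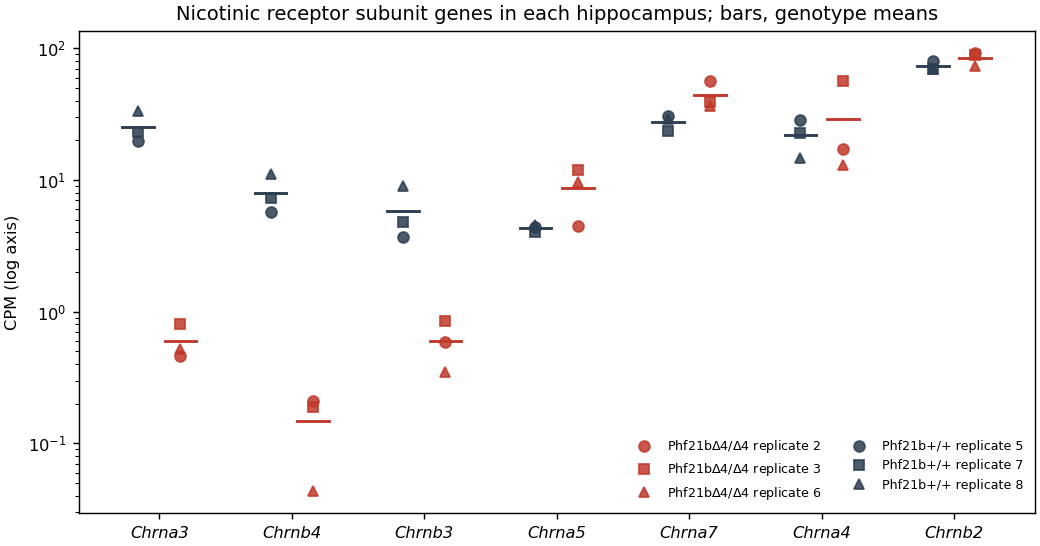
CPM (log axis) of each subunit gene in each mouse, with Phf21b+/+ mice in dark blue, Phf21bΔ4/Δ4 mice in red, and horizontal bars at the genotype means. *Chrna3* ran from 19.9 to 33.2 CPM in Phf21b+/+ mice and from 0.464 to 0.810 CPM in Phf21bΔ4/Δ4 mice, while the points of *Chrna4* and *Chrnb2* intermingle.

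*Chrna3* (ENSMUSG00000032303.7) encodes the alpha3 subunit and occupies bases 55010111 to 55026562 of chromosome 9 (GRCm38, minus strand). Its counts were 420, 548, and 739 reads for the Phf21b+/+ animals (replicates 5, 7, and 8), against 11, 17, and 12 reads for Phf21bΔ4/Δ4 replicates 2, 3, and 6. In CPM these were 19.9, 23.1, and 33.2 against 0.464, 0.810, and 0.522. The lowest Phf21b+/+ mouse was thus far above the highest Phf21bΔ4/Δ4 mouse. The mean fell from 25.4 ± 6.93 CPM to 0.599 ± 0.185 CPM (SD, n = 3 each). By limma the log2 fold change was -5.41, with a standard error of 0.29, a 95% interval of -6.10 to -4.72, and an FDR of 0.0023. By unadjusted p it ranked 3 of 14477 genes, and 19 genes had a log2 fold change as low or lower. From the summed reads the level was 43.1-fold lower, with an exact 95% interval of 31.5 to 60.6 that covers counting error only.

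*Chrnb4* (ENSMUSG00000035200.7) encodes the beta4 subunit, the usual partner of alpha3, and lies 1.6 kb from *Chrna3* on chromosome 9 from 55028154 to 55048779 on the same strand. Its counts were 120, 172, and 246 reads for Phf21b+/+ replicates 5, 7, and 8, against 5, 4, and 1 for Phf21bΔ4/Δ4 replicates 2, 3, and 6. The mean fell from 8.0 ± 2.76 CPM to 0.148 ± 0.0913 CPM (SD, n = 3 each). The log2 fold change was -5.93, with a standard error of 0.64 (FDR 0.038, limma), and its order with that of *Chrna3* changed between settings. The summed reads were 54.3-fold lower, and the exact counting interval of 29.3 to 114 shows how little 10 reads over 3 mice fix that value. *Chrna3* was called in all 6 limma fits that each left out 1 mouse. *Chrnb4* was called in 3 of the 6, with an FDR of 0.109, 0.208, and 0.191 when Phf21b+/+ replicate 5, 7, or 8 was left out and log2 fold changes between -6.32 and -5.23.

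The sequences before the start sites of the chromosome 9 genes are shown because *Chrna3* and *Chrnb4* fell together while *Chrna5*, at one end of the same cluster, did not. Each is the run of 250 bases before a RefSeq start on GRCm38.p6, read 5′ to 3′ on the strand of the gene. Capitals mark the motifs searched on both strands, which were the GC box GGGCGG, the cyclic AMP response element TGACGTCA and its half-site TGACG (part of the full element), the TATA box TATAAA, and the POU4 core ATAATTAA. The windows are chr9:55026563-55026812 (minus strand) for *Chrna3*, chr9:55048545-55048794 (minus strand) for *Chrnb4*, and chr9:54980630-54980879 (plus strand) for the upstream start of *Chrna5*, which has a second RefSeq start with the window chr9:54981238-54981487 (plus strand). In GENCODE the *Chrnb4* model begins inside its window.
Chrna3: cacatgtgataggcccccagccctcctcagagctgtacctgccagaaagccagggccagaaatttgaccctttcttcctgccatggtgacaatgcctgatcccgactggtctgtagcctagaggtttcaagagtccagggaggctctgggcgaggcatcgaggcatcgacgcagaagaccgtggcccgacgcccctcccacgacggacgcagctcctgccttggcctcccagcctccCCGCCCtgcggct
Chrnb4: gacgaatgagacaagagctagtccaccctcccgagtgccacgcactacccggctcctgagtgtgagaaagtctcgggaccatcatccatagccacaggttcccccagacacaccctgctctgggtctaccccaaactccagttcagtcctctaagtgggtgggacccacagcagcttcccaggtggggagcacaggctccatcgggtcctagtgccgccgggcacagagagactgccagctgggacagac
Chrna5, upstream start: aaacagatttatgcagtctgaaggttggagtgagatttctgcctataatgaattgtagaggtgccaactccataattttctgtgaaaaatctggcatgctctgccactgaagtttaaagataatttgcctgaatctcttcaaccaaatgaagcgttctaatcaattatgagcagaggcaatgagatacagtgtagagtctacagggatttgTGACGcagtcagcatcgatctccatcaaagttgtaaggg
Chrna5, downstream start: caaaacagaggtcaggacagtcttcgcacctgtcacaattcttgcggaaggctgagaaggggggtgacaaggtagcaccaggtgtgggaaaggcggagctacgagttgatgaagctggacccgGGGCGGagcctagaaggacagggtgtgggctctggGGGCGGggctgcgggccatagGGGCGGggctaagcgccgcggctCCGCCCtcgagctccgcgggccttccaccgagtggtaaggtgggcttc
The *Chrna3* window held 1 GC box and had a GC content of 63.2%. The *Chrnb4* window held none of the motifs and had a GC content of 61.2%. The upstream *Chrna5* window, with a GC content of 40.0%, held 1 TGACG half-site, and the downstream one, with a GC content of 65.2%, held 4 GC boxes. Over all 32851 promoter windows of this length, 32.7% held a GC box, 17.8% a half-site, 1.55% a full TGACGTCA, 12.4% a TATA box, and 1.09% the POU4 core. The windows of *Chrna3* and *Chrnb4* thus had no searched motif in common, which says only that these letters are not in both windows.

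No difference between the genotypes was detectable in the proportion of *Chrna3* to *Chrnb4*. In Phf21b+/+ mice, *Chrnb4* took 22.2%, 23.9%, and 25.0% of the reads of both genes in replicates 5, 7, and 8. In Phf21bΔ4/Δ4 replicates 2, 3, and 6 it took 31.3%, 19.0%, and 7.69%, from 5, 4, and 1 reads. In the Phf21bΔ4/Δ4 mice together it took 10 of 50 reads, or 20% (exact Clopper-Pearson 95% interval 10.03% to 33.7%), against 23.96% (22.2% to 25.8%) of 2245 reads in the Phf21b+/+ mice together. The intervals, which cover counting error only, overlapped, and the mutant mice spread more widely than the others. The log2 ratio of *Chrna3* to *Chrnb4* within a mouse was 1.69 ± 0.111 in Phf21b+/+ mice and 2.21 ± 1.18 in Phf21bΔ4/Δ4 mice (SD, n = 3 each). Its difference of 0.53 was smaller than the spread of the mutant mice (exact permutation test, p = 0.7, Benjamini-Hochberg adjusted p = 0.875 over 5 ratios) and turned to -0.10 without Phf21bΔ4/Δ4 replicate 6, which had 1 *Chrnb4* read.

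*Chrnb3* (ENSMUSG00000031492.13) encodes the accessory beta3 subunit and lies on chromosome 8 from 27368711 to 27399730 on the plus strand. Its counts were 78, 114, and 201 reads for Phf21b+/+ replicates 5, 7, and 8, against 14, 18, and 8 for Phf21bΔ4/Δ4 replicates 2, 3, and 6. The genotypes did not overlap, and Phf21b+/+ replicate 8 was the highest mouse here as it was for *Chrna3* and *Chrnb4*. The mean fell from 5.85 ± 2.81 CPM to 0.599 ± 0.255 CPM (SD, n = 3 each), or by 3.27 on the log2 scale with a standard error of 0.46 (FDR 0.065, limma). The call for *Chrnb3* was lost, at an FDR of 0.209, 0.113, 0.242, and 0.224, without Phf21bΔ4/Δ4 replicate 2 or Phf21b+/+ replicate 5, 7, or 8, and at an FDR of 0.110 with voom on the reads. Its log2 fold change ranged from -3.57 to -2.90 over the 6 fits with a mouse left out.

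The decrease of *Chrnb3* was smaller than that of *Chrna3*. *Chrnb3* supplied 18.7% of the reads of these 2 genes in the Phf21b+/+ mice together (exact Clopper-Pearson 95% interval 17.1% to 20.4%). In the Phf21bΔ4/Δ4 mice together it supplied 50.0% of 80 reads (38.6% to 61.4%). Both intervals cover counting error only and leave out variation between mice. By mouse the share was 15.7%, 17.2%, and 21.4% in Phf21b+/+ replicates 5, 7, and 8. It was 56.0%, 51.4%, and 40.0% in Phf21bΔ4/Δ4 replicates 2, 3, and 6. The log2 ratio of *Chrna3* to *Chrnb3* within a mouse was 2.43, 2.26, and 1.88 in Phf21b+/+ replicates 5, 7, and 8 and -0.34, -0.08, and 0.58 in Phf21bΔ4/Δ4 replicates 2, 3, and 6. The genotypes did not overlap in this ratio, and the difference was -2.14. With 3 mice against 3, the exact permutation p of 0.1 (0.167 adjusted over the 5 ratios) is the smallest the design allows.

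**Figure D2:**
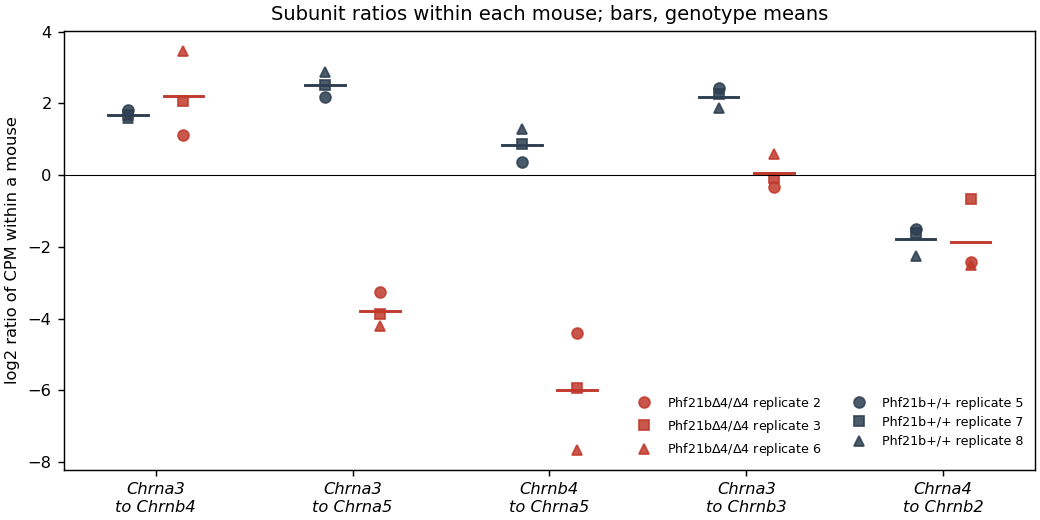
Log2 ratio of the CPM of 2 subunit genes within each mouse, with bars at the genotype means. The ratio of *Chrna3* to *Chrna5* lay between 2.17 and 2.87 in Phf21b+/+ mice and between -4.20 and -3.27 in Phf21bΔ4/Δ4 mice, whereas the genotypes overlap in the ratios of *Chrna3* to *Chrnb4* and of *Chrna4* to *Chrnb2*.

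*Chrna5* (ENSMUSG00000035594.10) encodes the accessory alpha5 subunit and lies 2.3 kb from *Chrna3*, from 54980880 to 55007779 on the plus strand. Its counts were 93, 95, and 101 reads for Phf21b+/+ replicates 5, 7, and 8, against 107, 251, and 222 for Phf21bΔ4/Δ4 replicates 2, 3, and 6. In CPM, Phf21bΔ4/Δ4 replicate 2 at 4.51 lay among the Phf21b+/+ mice at 4.01 to 4.54, and the other two mutant mice were above them at 12.0 and 9.66. Its log2 fold change of 0.90 (95% interval 0.060 to 1.74) did not pass the test (FDR 0.195, limma), and it was not called in any of the 6 fits with a mouse left out. The log2 ratio of *Chrna3* to *Chrna5* differed by -6.31 between the genotypes and that of *Chrnb4* to *Chrna5* by -6.83, with no overlap (exact permutation test, p = 0.1 and 0.167 adjusted for each). This separation follows from the decreases of *Chrna3* and *Chrnb4* already given, since *Chrna5* varied far less between mice.

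None of 12 neighboring genes, the 3 listed on each side of the cluster and of *Chrnb3*, was called, against 1.22% of all genes. On chromosome 9 these were *Ireb2*, *Hykk*, and *Psma4* on the *Chrna5* side and *Ube2q2*, *Fbxo22*, and *Tmem266* on the *Chrnb4* side. *Psma4*, a proteasome subunit gene 22.8 kb away, had 70.4 ± 7.35 CPM in the mutant group against 72.1 ± 1.46 CPM (SD, n = 3 each; FDR 0.802, limma). The Phf21bΔ4/Δ4 mice all lay below the Phf21b+/+ mice in 2 of the 12 (against 16.0% of all genes), *Ube2q2* (log2 fold change -0.11) and *Tmem266* (log2 fold change -0.41). Around *Chrnb3* the neighbors were *Rab11fip1*, *Got1l1*, *Eif4ebp1*, *Unc5d*, *Dusp26*, and *Rnf122*, of which the closest, *Eif4ebp1* at 92.0 kb, had 1.55 ± 0.273 CPM and 1.85 ± 0.383 CPM (SD, n = 3 each). At higher coordinates the listed genes were distant, with *Unc5d* at 1247 kb, *Dusp26* at 3689.7 kb, and *Rnf122* at 3712.1 kb. They say little about the region next to *Chrnb3*. The median log2 fold change of the 12 neighbors was -0.040.

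*Chrna7* (ENSMUSG00000030525.8), on chromosome 7 from 63098692 to 63212569, encodes the subunit of the homomeric alpha7 receptor. It had 30.5, 23.7, and 29.0 CPM in Phf21b+/+ replicates 5, 7, and 8 and 56.5, 39.0, and 36.3 CPM in Phf21bΔ4/Δ4 replicates 2, 3, and 6. Every Phf21bΔ4/Δ4 mouse was above every Phf21b+/+ mouse, yet the log2 fold change of 0.64 (95% interval 0.20 to 1.09) did not pass the test (FDR 0.150, limma). *Chrna7* was called without Phf21bΔ4/Δ4 replicate 6 (log2 fold change 0.77, FDR 0.055) and with the mice weighted by arrayWeights (0.80, FDR 0.015), and in none of the other settings tried. Calls were common in those settings, with 2830 and 3549 of the 14477 genes called, against 176 in the main fit.

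*Chrnb2* (ENSMUSG00000027950.7), on chromosome 3 from 89746195 to 89764632, encodes beta2, the partner of alpha4. Its level was 73.1 ± 5.99 CPM in Phf21b+/+ mice against 84.9 ± 10.1 CPM (SD, n = 3 each). The log2 fold change was 0.21 (95% interval -0.054 to 0.48, FDR 0.282, limma), and the genotypes overlapped. Of the exons of *Chrnb2*, 1365 bases are shared with *Adar* on the opposite strand, and strand use in the counting was not given in the sources used here, so the reads of the 2 genes may not be fully told apart.

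*Chrna4* (ENSMUSG00000027577.14), on chromosome 2 from 181018380 to 181043546, encodes alpha4. It varied widely among the mutant mice, with 17.2, 56.7, and 13.0 CPM in Phf21bΔ4/Δ4 replicates 2, 3, and 6, against 28.4, 22.8, and 14.7 CPM in Phf21b+/+ replicates 5, 7, and 8. Phf21bΔ4/Δ4 replicate 3 was the highest of all 6 mice and Phf21bΔ4/Δ4 replicate 6 the lowest. The log2 fold change was 0.14 (95% interval -1.18 to 1.45, FDR 0.888, limma), and it was -0.50 without Phf21bΔ4/Δ4 replicate 3 and -0.13 without Phf21b+/+ replicate 8. The log2 ratio of *Chrna4* to *Chrnb2* was -1.78 ± 0.402 in Phf21b+/+ mice and -1.86 ± 1.04 in Phf21bΔ4/Δ4 mice (SD, n = 3 each; exact permutation test, p = 0.9 and 0.9 adjusted).

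**Figure D3:**
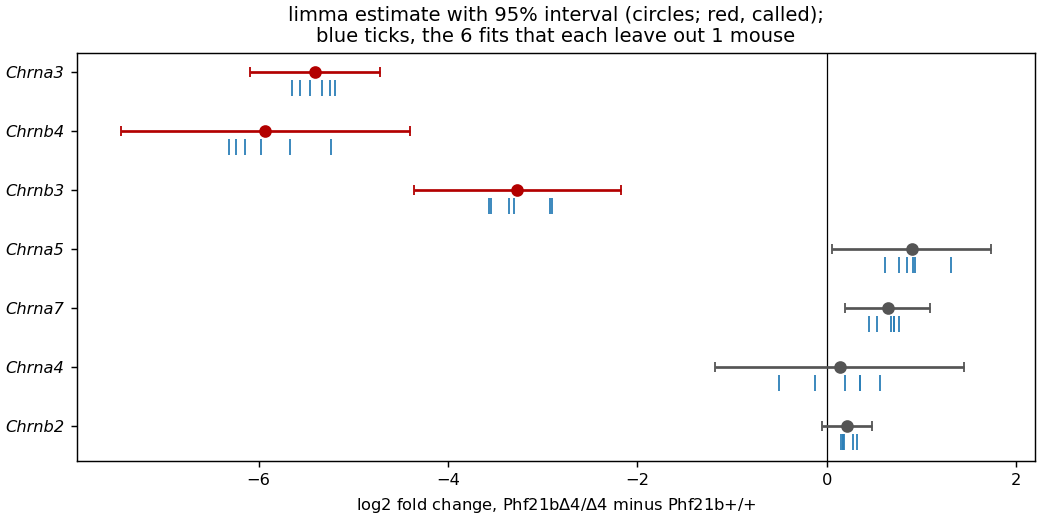
Log2 fold change (Phf21bΔ4/Δ4 minus Phf21b+/+) of each subunit gene by limma with its 95% interval, red where the gene was called, and blue ticks for the 6 fits that each left out 1 mouse. The intervals of *Chrna3*, *Chrnb4*, and *Chrnb3* lie wholly below -2, and the interval of *Chrna4* runs from -1.18 to 1.45.

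To compare levels between genes, CPM was divided by the merged exon length in kb. In Phf21b+/+ mice the order was *Chrnb2* with 8.72 ± 0.715 CPM per kb, *Chrna7* with 6.16 ± 0.799, *Chrna3* with 4.83 ± 1.32, *Chrna4* with 4.37 ± 1.38, *Chrnb4* with 2.15 ± 0.741, *Chrna5* with 1.38 ± 0.0886, and *Chrnb3* with 0.918 ± 0.442 CPM per kb (SD, n = 3). Among neighbors in this order, *Chrnb2* did not overlap with *Chrna7* nor *Chrnb4* with *Chrna5*, and the other pairs overlapped between mice. In Phf21bΔ4/Δ4 mice, *Chrnb2* with 10.1 ± 1.21, *Chrna7* with 9.75 ± 2.43, *Chrna4* with 5.77 ± 4.80, and *Chrna5* with 2.79 ± 1.22 CPM per kb came before *Chrna3* with 0.114 ± 0.0352, *Chrnb3* with 0.0940 ± 0.0400, and *Chrnb4* with 0.0398 ± 0.0245 CPM per kb (SD, n = 3). In that order the only step between neighbors without overlap was the one from *Chrna5* down to *Chrna3*.

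The 7 genes summed to 28.5 ± 1.76 CPM per kb in Phf21b+/+ mice and 28.7 ± 6.08 CPM per kb in Phf21bΔ4/Δ4 mice (SD, n = 3 each; exact permutation test, p = 1). The makeup of that sum differed. *Chrna3*, *Chrnb4*, and *Chrnb3* together gave 7.90 ± 2.50 CPM per kb in Phf21b+/+ mice and 0.247 ± 0.0875 CPM per kb in Phf21bΔ4/Δ4 mice. The other 4 genes gave 20.6 ± 2.39 and 28.4 ± 5.99 CPM per kb, with overlap between the genotypes (exact permutation test, p = 0.2). As a share of the sum, *Chrna3* was 16.9% ± 4.14 in Phf21b+/+ mice and 0.396% ± 0.0762 in Phf21bΔ4/Δ4 mice, and *Chrna7* was 21.5% ± 1.66 and 34.7% ± 9.50 (SD, n = 3 each).

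**Figure D4:**
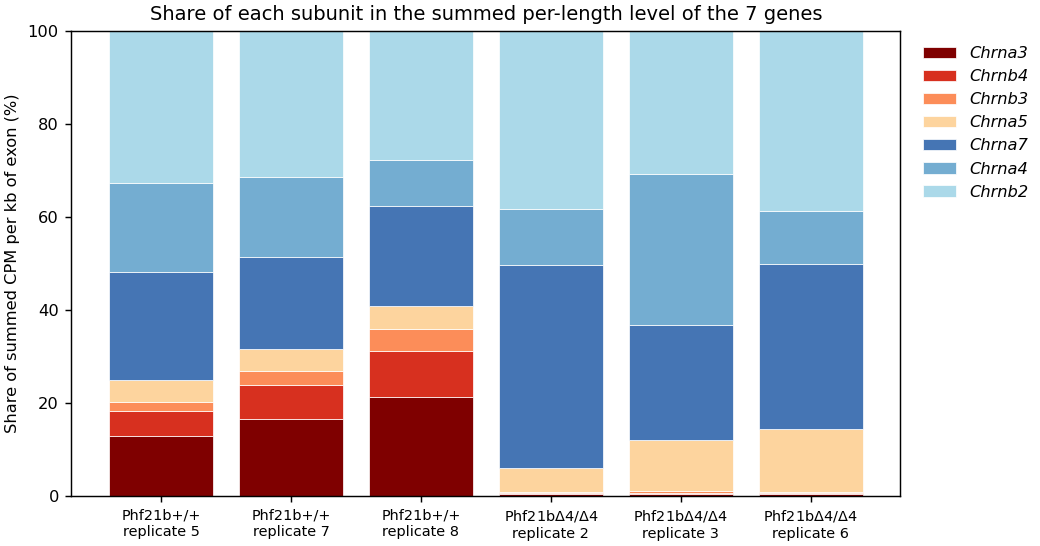
Share of each subunit gene (%) in the summed CPM per kb of exon of the 7 genes, 1 bar per mouse. *Chrna3* takes between 12.9% and 21.2% of the bar in Phf21b+/+ mice and at most 0.442% in Phf21bΔ4/Δ4 mice, where *Chrnb2*, *Chrna7*, and *Chrna4* fill most of it.

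Among genes outside the family, the closest patterns were found by the root mean square difference of log2 CPM over the 6 mice, after the mean of each gene was subtracted. Because the genotypes lay far apart in the 3 subunits, this measure mainly picks genes with a like fold change. The closest to *Chrna3* were the orphan receptor gene *Gpr151* (0.56), *Gm38534* (0.57), the choline transporter gene *Slc5a7* (0.82), *Tafa4* (0.87), and *Tmem182* (0.87). *Chrnb4* was closest to the homeobox gene *Irx1* (0.61), followed by *Gm38534* (0.75), *Gpr151* (0.88), *Slc5a7* (1.08), and *Wfikkn2* (1.13). Some of these matches rest on very few reads. In Phf21bΔ4/Δ4 replicates 2, 3, and 6, *Irx1* had 10, 6, and 1 reads, and *Gm38534* had 1 in each. For *Chrnb3* they were the synaptotagmin gene *Syt15* (0.40), the neurokinin B gene *Tac2* (0.42), *Slc5a7* (0.46), *Syt9* (0.48), and *Syt6* (0.57). *Slc5a7* was thus among the closest genes for all 3 subunits. *Chrna3* and *Chrnb4* differed from each other by 0.73 on this measure, and *Chrnb3* differed from them by 1.12 and 1.40.

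**Figure D5:**
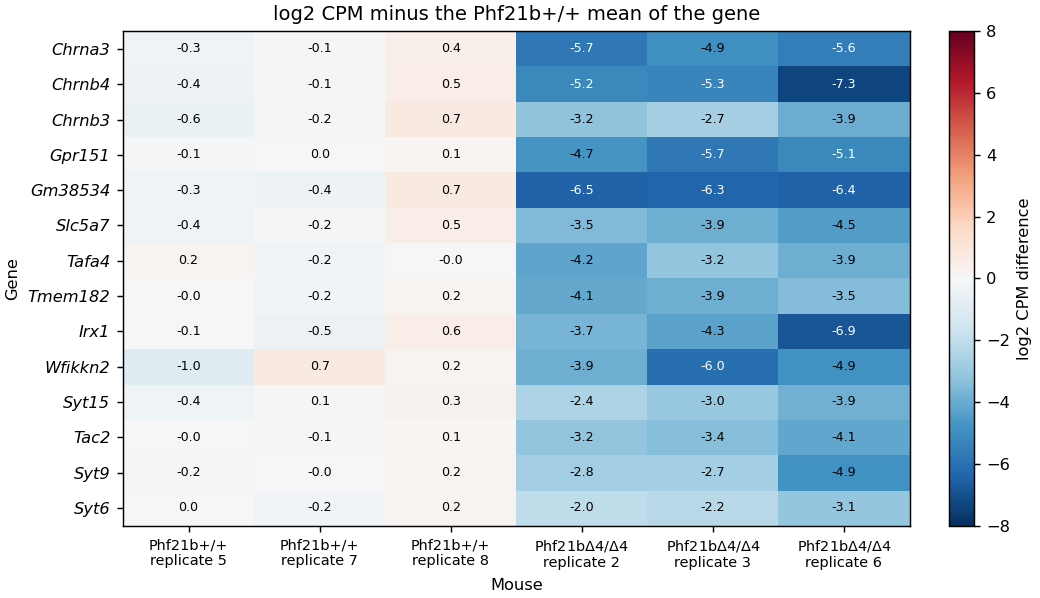
Log2 CPM of the 3 decreased subunit genes and of the genes closest to them in pattern, minus the Phf21b+/+ mean of each gene, in each mouse. The Phf21b+/+ mice stay within 1.0 of their mean, while *Chrna3* lies 5.7, 4.9, and 5.6 below it in Phf21bΔ4/Δ4 replicates 2, 3, and 6.

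Of 19 listed medial habenula markers, none of them a nicotinic gene, 15 were called lower and none higher, and in 18 the Phf21bΔ4/Δ4 mice lay below the Phf21b+/+ mice, against 0.663% and 16.0% of all genes. *Etv1* was the exception. The markers summed to between 137 and 229 CPM in Phf21bΔ4/Δ4 mice and to between 434 and 642 CPM in Phf21b+/+ mice. *Etv1* and *Nwd2* gave most of the Phf21bΔ4/Δ4 sum, and *Pou4f1*, *Irx2*, *Chat*, and *Slc18a3* had at most 3 reads in each Phf21bΔ4/Δ4 mouse. The list was written with earlier results of these data known. Markers of the thalamus and lateral habenula, of which 2 of 12 were called lower and none higher, summed to between 241 and 358 CPM and to between 538 and 861 CPM in the same order. Of 3 listed basal forebrain markers, *Zic4* was called lower, and *Ngfr* and *Isl1* were not called and overlapped between the genotypes. *Zic4*, with a mean of 28.8 CPM in Phf21b+/+ mice and 1.43 CPM in Phf21bΔ4/Δ4 mice, gave most of the Phf21b+/+ sum of that list. The lower sum is therefore mainly that of *Zic4*. Of 5 CA1 markers 2 were called higher, and their sum was between 726 and 849 CPM in Phf21bΔ4/Δ4 mice and between 252 and 312 CPM in Phf21b+/+ mice. None of 5 CA3 and none of 6 dentate markers was called, 1 of 8 choroid plexus markers (*Otx2*) was called lower, and 1 of 7 interneuron markers (*Gad2*) was called higher. The interneuron list summed to between 644 and 817 CPM in Phf21bΔ4/Δ4 mice against 447 to 500.3 CPM. The sums of the medial habenula, thalamus and lateral habenula, basal forebrain, and dentate lists were lower in every Phf21bΔ4/Δ4 mouse than in every Phf21b+/+ mouse, as were the 3 decreased subunits, and those of the CA1 and interneuron lists were higher. The CA3 and choroid plexus sums overlapped between the genotypes. The part of these lists in the subunit values was not tested.

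Set against the mean log2 CPM of the 19 habenula markers within each mouse, *Chrna3* was at 0.83, 1.03, and 1.12 in Phf21b+/+ replicates 5, 7, and 8 and at -0.97, 0.68, and -0.06 in Phf21bΔ4/Δ4 replicates 2, 3, and 6. The difference was -1.11, with no overlap between the genotypes (exact permutation test, p = 0.1, the smallest possible). For *Chrnb4* the difference was -1.63 and for *Chrnb3* it was 1.03 (exact permutation test, p = 0.1 for each). The markers averaged had log2 fold changes from -9.99 (*Irx2*) to 0.76 (*Etv1*), with a median of -3.56. *Irx2*, *Pou4f1*, *Chat*, *Slc18a3*, and *Irx5* fell more than *Chrna3*, and the other markers fell less or rose. These values therefore depend on which markers are averaged, and on the small prior count that stands in for 0 reads. On the log2(CPM + 1) scale they were -1.79, -0.70, and 0.19 (exact permutation test, p = 0.1, 0.1, and 0.4), and without the acetylcholine markers *Chat*, *Slc18a3*, and *Slc5a7* they were -1.61, -2.14, and 0.53 (p = 0.1, 0.1, and 0.4 by the same exact test). The separation of *Chrnb3* was thus lost in both settings. The difference of *Chrna3* was -0.68 without Phf21bΔ4/Δ4 replicate 2, that of *Chrnb4* -1.04 without Phf21bΔ4/Δ4 replicate 6, and that of *Chrnb3* 0.57 without Phf21bΔ4/Δ4 replicate 3.

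Of the other subunit genes of the family, *Chrna1*, best known from the muscle receptor, was listed at 2.05 ± 0.911 CPM in Phf21bΔ4/Δ4 mice against 1.96 ± 0.465 CPM (SD, n = 3 each; FDR 0.968, limma). *Chrna2*, *Chrna6*, *Chrna9*, *Chrna10*, *Chrnb1*, *Chrnd*, *Chrne*, and *Chrng* were not analysed here. None of 11 genes for assembly and accessory proteins of nicotinic receptors was called, against 1.22% of all genes. In 6 of them (*Lynx1*, *Lypd1*, *Ly6h*, *Ly6e*, *Lypd6*, and *Ric3*) all Phf21bΔ4/Δ4 mice lay above all Phf21b+/+ mice, against 15.0% of all genes. *Lynx1*, whose membrane-anchored product restrains these receptors, averaged 529.8 ± 35.7 CPM in Phf21bΔ4/Δ4 mice against 380.1 ± 34.4 CPM (SD, n = 3 each; log2 fold change 0.48, FDR 0.12, limma). *Lypd1*, a gene of the same protein family, had a log2 fold change of 0.33 (FDR 0.133, limma). Neither assembly chaperone gene passed the test, with log2 fold changes of 0.18 for *Ric3* (FDR 0.273, limma) and 0.13 for *Tmem35a* (FDR 0.606, limma). The median log2 fold change of the 11 genes was 0.33.

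Of 11 listed genes for acetylcholine synthesis, transport, breakdown, and muscarinic receptors, 3 were called lower and none higher. Over all genes the shares were 0.663% lower and 0.553% higher. The 3 lower genes were *Chat*, which makes acetylcholine, *Slc18a3*, which loads it into vesicles, and *Slc5a7*, which takes up choline. All 3 were already counted among the medial habenula markers called lower. *Chat* had 1, 0, and 0 reads for Phf21bΔ4/Δ4 replicates 2, 3, and 6, against 78, 101, and 169 for Phf21b+/+ replicates 5, 7, and 8. *Ache*, which breaks acetylcholine down, was not called (log2 fold change 0.21, FDR 0.342, limma). The muscarinic receptor gene *Chrm5* had 308, 143, and 68 reads for Phf21bΔ4/Δ4 replicates 2, 3, and 6, against 36, 49, and 35 for Phf21b+/+ replicates 5, 7, and 8, and did not pass the test (log2 fold change 1.85, FDR 0.143, limma).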

How the data were processed

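Hippocampal RNA-Seq values of 6 mice were used, grouped by the genotype in their labels. The authors trimmed reads with Trimmomatic 0.39, mapped them to GRCm38 with STAR 2.7.3a, and summarized them with featureCounts in Subread 1.6.4. Genes that reached a CPM of 1 in fewer than 2 samples were dropped, and edgeR was used to normalize. The authors deposited log2 values (log2 CPM), whose prior count is not given in the sources used here. Of the deposited low values, 100% were whole reads within 0.1 once the lowest value, which stands for 0 reads, was subtracted. Means and SDs are of the resulting CPM.

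All 14477 genes were tested between genotypes on these log2 values by limma's lmFit and eBayes with a trend (version 3.58.1, R 4.3.3), 2-sided and with Benjamini-Hochberg adjustment. The paper's thresholds, FDR below 0.1 and more than 1.3-fold, defined calls. The paper tested counts, whereas the deposited unit is a log value, so the recovered reads were tested only in the voom alternative. Single ratios and sums were compared by 2-sided exact permutation tests, whose smallest p is 0.1. That the 3 samples of a genotype are separate mice was taken from their separate tags and the paper's n of 3 per group. The test was checked on simulated counts with the same dispersion for all genes and no differences between mice shared by many genes. That check therefore does not cover differences in marker content such as those seen between these mice. Depth, given as reads per mouse, limits the low genes. Intervals of summed reads and of read shares cover counting error only. Intervals of log2 fold changes are from limma and rest on the variation between mice.

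GENCODE gene models (GRCm38) gave positions and exon lengths, and 98.7% of listed symbols matched 1 model. Promoter windows are from RefSeq (GRCm38.p6). Windows were matched by symbol for 6 of the 7 genes. Genes named are the 7 subunits, the rest of the family, accessory and cholinergic genes, the 3 listed genes on each side of the cluster and of *Chrnb3*, the 5 genes closest in pattern to each called subunit, *Phf21b*, and 8 marker lists. The members and lists were chosen with earlier results of these data known. Alternatives were other variance priors, arrayWeights, a filter, pseudocounts, 2 normalizations, voom on the reads, thresholds, and leaving out each mouse. Other steps used Python 3.11.15 with SciPy 1.17.1 and pandas 2.3.3, and plots used matplotlib 3.10.9.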

Additional observations from a re-analysis of the deposited data

How the results depend on the processing

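No paired analysis was possible because the labels give no litter or other link between mice. *Chrna3* was called in all 15 alternative fits, and its decrease was larger than that of *Chrnb4* with arrayWeights (-5.81 and -5.75), both pseudocounts, quantile normalization, and without Phf21bΔ4/Δ4 replicate 6. The number of subunits called lower was 1 with only genes of a mean log2 CPM of at least 1, which removes *Chrnb4* and *Chrnb3*, and ranged from 1 to 3 with each mouse left out. It was 2 or 3 in the other settings. *Chrna4* ranged from -0.50 to 0.56 with each mouse left out, and was below 0 without Phf21bΔ4/Δ4 replicate 3 (-0.50) or Phf21b+/+ replicate 8 (-0.13), for which the cause was not tested. The log2 ratio of *Chrna3* to *Chrnb4* turned from 0.53 to -1.09 with log2(CPM + 1) and to -0.13 with log2(CPM + 0.1). With each mouse left out it ranged from -0.10 to 1.07. That of *Chrna4* to *Chrnb2* ranged from -0.67 to 0.25 in those fits, being above 0 without Phf21bΔ4/Δ4 replicate 2 (0.20) or 6 (0.25) or Phf21b+/+ replicate 5 (0.071) or 7 (0.0089), and the cause was not tested. The differences from the habenula markers, whose alternatives were chosen after seeing the data, ranged from -1.79 to -0.68 for *Chrna3*, from -2.14 to -0.70 for *Chrnb4*, and from 0.19 to 1.27 for *Chrnb3*. For *Chrnb3* the exact permutation p was 0.4 without Phf21b+/+ replicate 5, 0.3 without Phf21b+/+ replicate 7, and 0.2 without Phf21bΔ4/Δ4 replicate 3. Over all genes, 176 were called. This became 75 with 1 prior variance for all genes, 3549 with arrayWeights, 101 with the filter, 25 at an FDR under 0.05, 90 above a 2-fold change, and 9 to 2830 with each mouse left out, 9 without Phf21b+/+ replicate 8 and 2830 without Phf21bΔ4/Δ4 replicate 6.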
